A study of Mus musculus with 6 samples.

Results

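Spp1, Ibsp, Dmp1, Dspp, Mepe, Alpl and Bglap, 7 genes of bone matrix mineralization out of 21911 annotated protein-coding genes, were examined in ATAC-seq of the embryonic mouse palate. The genes were taken by name, and every one of the 7 had peaks in these data. The first 5 named lie side by side on chromosome 5, and Alpl and Bglap lie on chromosomes 4 and 3. ATAC-seq uses the Tn5 transposase to cut accessible DNA, and a peak is a stretch where short fragments piled up.

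The libraries came from palatal shelves of C57BL/6 embryos at E14.5, with no mutation and no treatment in either group. Epithelium was peeled off by hand after trypsin, and the comparison group was the tissue left behind, largely mesenchyme. There were 3 libraries of each tissue at about 20000 cells each, and the sources do not give 1 number for the embryos behind a library: 3 embryos in one place, 5 palatal shelves in another, and a further number in the study's methods. Both groups are mixtures of cells, so that fewer cells of a type and less open chromatin per cell cannot be told apart.

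Bone is built by osteoblasts, which lay down collagen and then let calcium phosphate crystals form in it. Spp1 (osteopontin), Ibsp (bone sialoprotein), Dmp1, Dspp and Mepe encode acidic secreted phosphoproteins of the small integrin-binding ligand N-linked glycoprotein family, which arose by gene duplication and bind mineral. Alpl encodes tissue-nonspecific alkaline phosphatase, the enzyme that removes the mineral inhibitor pyrophosphate, and Bglap encodes osteocalcin, a small calcium-binding protein that osteoblasts release late in their maturation. The bony palate forms by ossification within the mesenchyme of the shelves, and the epithelium makes no bone.

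Positions are on mm10 (GRCm38.p6), with genes from GENCODE M21. Dspp occupies chr5:104170712-104180127, Dmp1 chr5:104202613-104214102, Ibsp chr5:104299171-104311469, Mepe chr5:104325329-104338611 and Spp1 chr5:104435118-104441050, all on the plus strand. Alpl occupies chr4:137741733-137796384 and Bglap chr3:88383501-88384464, both on the minus strand. A peak was counted for a gene when its midpoint fell in the gene body or within 100 kb of the start site, the first base of the principal transcript. In the cluster each peak went once to the nearest of the 5 starts, so the stretch counted for a gene ran from 61.4 kb at Ibsp to 155 kb at Spp1, whereas Alpl and Bglap kept 100 kb on each side of the start.

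The DNA that the results below turn on is shown here, 5′ to 3′, in lower case with motif matches in capitals. The first 3 are the stretches just upstream of a start. They are shown because Alpl and Bglap had a peak over the GENCODE start in every library while Ibsp did not. They come from RefSeq promoters of GRCm38.p6, are written on the strand of the gene, and are chr5:104299037-104299170 (plus strand, 134 bases before the GENCODE start), chr3:88384467-88384716 (minus strand, 250 bases) and chr4:137796385-137796634 (minus strand, 250 bases). The capitals mark the RUNX core, TGTGGT or its reverse complement ACCACA, in Bglap and 2 overlapping GC boxes, GGGCGG, in Alpl.
Ibsp upstream: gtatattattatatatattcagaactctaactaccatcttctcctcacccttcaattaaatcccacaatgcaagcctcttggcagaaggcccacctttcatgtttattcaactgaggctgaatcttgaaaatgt
Bglap upstream: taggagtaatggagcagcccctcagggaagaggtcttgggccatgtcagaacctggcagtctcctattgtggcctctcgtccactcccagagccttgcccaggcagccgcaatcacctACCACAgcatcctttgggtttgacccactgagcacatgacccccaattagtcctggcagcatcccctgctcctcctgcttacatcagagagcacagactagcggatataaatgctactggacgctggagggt
Alpl upstream: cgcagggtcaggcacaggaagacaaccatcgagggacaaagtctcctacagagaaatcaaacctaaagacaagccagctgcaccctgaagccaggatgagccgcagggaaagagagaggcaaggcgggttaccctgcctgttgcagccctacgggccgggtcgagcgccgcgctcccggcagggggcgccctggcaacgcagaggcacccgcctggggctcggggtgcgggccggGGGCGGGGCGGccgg

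The next 4 are stretches covered by a peak in all 3 mesenchyme libraries, read from the plus strand of the same build. Dmp1 -1.1 kb (chr5:104201396-104201695) had its only epithelium peak in replicate 3, and the other 3 had no epithelium peak: Mepe +45.9 kb (chr5:104370763-104370934), Alpl -9.3 kb (chr4:137805451-137805660) and Alpl -10.6 kb (chr4:137806957-137807121). The sign gives the side of the start, minus for upstream. Capitals mark the RUNX core, an AP-1 motif (TGANTCA) and the reverse complement of a GC box.
Dmp1 -1.1 kb: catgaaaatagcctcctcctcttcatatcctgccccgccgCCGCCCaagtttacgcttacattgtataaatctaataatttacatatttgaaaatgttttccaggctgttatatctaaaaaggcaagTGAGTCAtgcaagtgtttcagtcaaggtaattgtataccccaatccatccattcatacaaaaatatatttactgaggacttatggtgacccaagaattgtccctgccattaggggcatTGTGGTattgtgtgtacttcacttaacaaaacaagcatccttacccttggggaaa
Mepe +45.9 kb: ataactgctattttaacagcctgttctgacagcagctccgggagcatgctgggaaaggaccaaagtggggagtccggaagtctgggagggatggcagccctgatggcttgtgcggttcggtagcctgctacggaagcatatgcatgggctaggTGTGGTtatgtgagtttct
Alpl -9.3 kb: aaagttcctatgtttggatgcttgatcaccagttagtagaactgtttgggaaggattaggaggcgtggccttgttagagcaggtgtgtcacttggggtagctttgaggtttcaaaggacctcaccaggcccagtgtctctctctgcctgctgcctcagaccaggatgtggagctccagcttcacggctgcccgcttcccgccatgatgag
Alpl -10.6 kb: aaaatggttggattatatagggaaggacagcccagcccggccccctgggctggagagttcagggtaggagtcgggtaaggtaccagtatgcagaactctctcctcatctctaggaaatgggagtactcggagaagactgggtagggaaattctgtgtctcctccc

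Alpl and Bglap had far more peaks than the chromosome 5 genes in both tissues, and 0 of the 7 genes passed the test between tissues. Per 100 kb counted, the number of Alpl peaks was 53.7 ± 0.289 in the epithelium libraries and 60.8 ± 2.75 in those of mesenchyme (SD, n = 3 each). Bglap held 39.0 ± 2.18 and 45.2 ± 6.51 peaks per 100 kb. The median gene, with the mean taken over all 6 libraries, held 17.0 peaks per 100 kb, with quartiles at 7.48 and 34.2.

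In epithelium the order within the cluster was Dspp, Mepe, Spp1, Dmp1 and Ibsp, and in mesenchyme Mepe stood just above Dspp. Dspp held 18.1 ± 5.25 peaks per 100 kb in epithelium and 15.2 ± 3.49 in mesenchyme (SD, n = 3). Mepe held 11.8 ± 1.47 and 15.7 ± 4.49. Spp1 followed with 8.39 ± 2.96 and 10.8 ± 2.27, Dmp1 with 6.23 ± 2.70 and 6.75 ± 3.60, and Ibsp with 2.72 ± 4.70 and 6.52 ± 1.63. The intervals of 1 SD around the means overlapped between neighbours in this order, whereas those of Alpl and Bglap lay above those of every cluster gene and apart from each other. The cluster as a whole held 10.3 peaks per 100 kb in epithelium and 11.5 in mesenchyme.

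The comparison asked whether genes that belong to bone had more open regions in the bone-forming layer. Peak numbers were scaled to the mean length of the 6 peak lists, which held 270003 to 349322 peaks, and log2(scaled peaks + 1) was tested with limma over the 21737 genes whose mean was 1 peak per library or more. A log2 difference is epithelium minus mesenchyme and, because of the added 1, comes out too small where peaks are few. By limma's adjusted p under 0.05, 3.29% of all genes tested were called, 1.55% with more peaks in epithelium and 1.74% with fewer, beside 0 of the 7 members. No other tool was run. At an unadjusted limma p under 0.05, 1 of the 7, Ibsp, was counted, where 17.9% of all genes were. Once scaled, the 3 epithelium and 3 mesenchyme values overlapped at every member, whereas over all genes 12.9% lay apart with epithelium lower and 9.0% with epithelium higher. The p-values measure the spread between these libraries only.

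Ibsp encodes bone sialoprotein, which binds hydroxyapatite and marks osteoblasts that have begun to mineralize. Epithelium replicates 1 and 2 had 0 peaks assigned to it and replicate 3 had 5, and the mesenchyme replicates had 4, 5 and 3. All mesenchyme libraries thus had peaks there, and the epithelium libraries lay at 0 or at the highest mesenchyme count. The limma log2 difference was -1.40 ± 0.56 (SE; adjusted p = 0.159, 95% interval -2.53 to -0.27). This value hung on 1 library: without epithelium replicate 3 it was -2.29 and passed (limma adjusted p = 0.0275). Of all 21730 genes tested without that library, 215 passed with more peaks in epithelium and 277 with fewer. A peak is assigned by its midpoint, and epithelium replicate 1 had a peak 13004 bp downstream of the Ibsp start whose midpoint fell nearer to the Mepe start.

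Spp1 encodes osteopontin, made by osteoblasts but also by osteoclasts, macrophages and several epithelia. Its epithelium libraries had 14, 17 and 8 peaks and its mesenchyme libraries 20, 17 and 13. The ranges overlapped, and the limma log2 difference was -0.32 ± 0.26 (SE; adjusted p = 0.556).

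Dmp1 encodes an acidic protein that nucleates mineral and is typical of osteocytes and odontoblasts. The libraries had 2, 5 and 5 peaks in epithelium and 3, 7 and 3 in mesenchyme. The difference was close to 0, at -0.04 ± 0.42 on the log2 scale (SE; limma adjusted p = 0.974), and its sign turned without epithelium replicate 1 (0.24) and without mesenchyme replicate 2 (0.25).

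Dspp encodes the precursor of the main phosphoproteins of tooth dentin, and it was the only member with a higher mean in epithelium. Its libraries had 18, 28 and 17 peaks in epithelium and 14, 17 and 22 in mesenchyme. Epithelium replicate 2 stood highest, and the others overlapped. The limma log2 difference of 0.28 ± 0.22 (SE; adjusted p = 0.535) came to -0.0041 when only peaks at least 300 bp wide were counted. Most of these peaks lay far upstream: 50 to 100 kb from the start the epithelium libraries had 11, 16 and 13 and the mesenchyme libraries 7, 10 and 14, and the nearest start of any gene was Dspp at 4 of its 27 regions.

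Mepe encodes a phosphoglycoprotein of osteocytes that restrains mineral deposition. It had 8, 7 and 9 peaks in epithelium and 8, 14 and 10 in mesenchyme. Mesenchyme replicate 1 lay among the epithelium libraries, and the limma log2 difference was -0.29 ± 0.30 (SE; adjusted p = 0.663).

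Added up, the 5 cluster genes had 42, 57 and 44 peaks in epithelium and 49, 60 and 51 in mesenchyme. Replicate 2, the longest list of each tissue, had the most. Scaled to equal lists, the sums were 48.5 ± 2.32 and 52.2 ± 2.21 (SD, n = 3), still overlapping.

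Alpl, whose enzyme clears pyrophosphate so that crystals can grow, had tissue ranges that lay apart in raw peak number and overlapped once list length was taken into account, and neither form passed the test. The epithelium libraries had 107, 107 and 108 peaks and the mesenchyme libraries 127, 122 and 116. Before scaling no mesenchyme library reached as low as an epithelium library, a pattern that 10.3% of all genes tested shared. After scaling to list length the values were 123, 95.4 and 113 against 134, 111 and 115, which overlapped, and the limma log2 difference was -0.12 ± 0.11 (SE; adjusted p = 0.603). Unscaled it was -0.18 (limma adjusted p = 0.417).

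The difference at Alpl was larger in the length of DNA under peaks. Peaks covered 67.0, 72.8 and 69.4 kb in epithelium and 83.5, 88.7 and 92.6 kb in mesenchyme. Scaled to the total length covered in each library, the values were 80.6, 64.9 and 73.9 kb against 87.4, 81.2 and 87.4 kb. The groups still lay apart, but narrowly, with epithelium replicate 1 close below mesenchyme replicate 2. Covered length lay apart in this direction for 15.9% of all genes before scaling and 17.2% after. The limma log2 difference in covered kb was -0.22 ± 0.08 (SE; adjusted p = 0.0686), short of the threshold, where 14.0% of all genes passed and 7.69% passed with less in epithelium.

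Bglap, the osteocalcin gene, had 76, 83 and 75 peaks in epithelium and 103, 91 and 77 in mesenchyme. Mesenchyme replicate 3 fell among the epithelium libraries, and the limma log2 difference was -0.14 ± 0.12 (SE; adjusted p = 0.583). Without mesenchyme replicate 1 it was 0.0096. The window around Bglap held 12 other protein-coding starts, and Bglap was the nearest start at only 5 of its 69 regions. The window around Alpl held 1, and Alpl was the nearest start at 33 of its 78 regions. The rest of the Alpl regions lay nearer to Ece1 or Rap1gap. At 50 to 100 kb from the Alpl start the epithelium libraries had 64, 58 and 62 peaks and the mesenchyme libraries 69, 66 and 66.

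**Figure D1:**
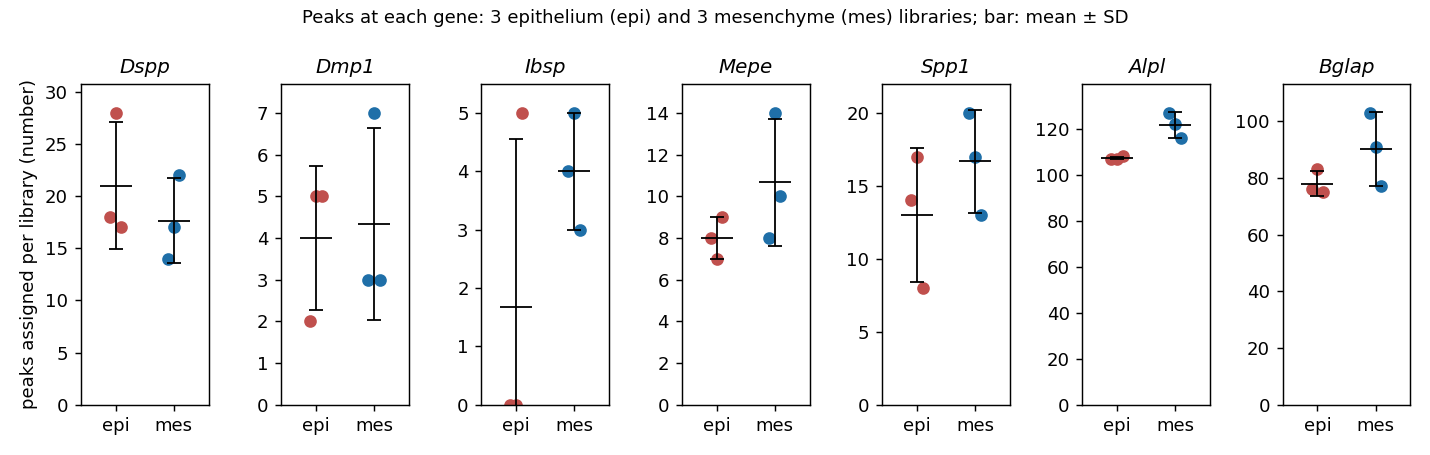
Number of peaks counted for each of the 7 genes (vertical axis, own scale for each gene) in the 3 epithelium (red) and 3 mesenchyme (blue) libraries, with the mean and SD as bars. Ibsp shows 2 epithelium libraries at 0 beside one at 5, and Alpl shows 3 epithelium libraries at 107 to 108 under mesenchyme libraries at 116 to 127, before scaling to list length.

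Start sites set Alpl and Bglap apart from the cluster too. Alpl and Bglap had a peak over the start in all 6 libraries, as did 59.7% of all protein-coding starts. Dmp1, Dspp and Mepe had none in any library, as did 22.9% of all starts. Ibsp had one in mesenchyme replicates 1 and 3 and Spp1 in mesenchyme replicate 3. No start had all 3 libraries of one tissue and none of the other, which held for 0.251% of all starts in favour of mesenchyme and 0.365% in favour of epithelium.

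At Alpl the peak over the start was 1015, 2074 and 1445 bp wide in epithelium and 1752, 1451 and 1914 bp wide in mesenchyme, a broad opening in both tissues. RefSeq lists a second Alpl start 29909 bp into the gene. A peak lay over it in epithelium replicate 2, where it was 390 bp wide, and in the mesenchyme replicates, where it was 229, 1367 and 1796 bp wide. The merged region around this second start had peaks in all 6 libraries, covering 678 to 851 bp in epithelium and 1105 to 1796 bp in mesenchyme.

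At Bglap the peak over the start measured 380, 477 and 4163 bp in epithelium and 973, 404 and 1109 bp in mesenchyme. The RefSeq start lies 33 bp upstream of the GENCODE one, and epithelium replicate 2 had no peak over that base. Bglap has close copies next to it, Bglap2 and Bglap3, and 42.0% of the 50-base words of its body occurred again within the window. The study's methods give Bowtie2 with default parameters, which places a read that fits several sites at 1 of them, and no filter on mapping quality is stated. In the repeated part, reads from Bglap and from its copies cannot be told apart.

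Around the Ibsp start a region at chr5:104299062-104299450 held a peak in all 3 mesenchyme libraries, 341, 199 and 318 bp wide, and in epithelium replicate 3, 199 bp wide. The smallest peak in each deposited list was 199 bp, so the epithelium peak and that of mesenchyme replicate 2 were of the minimum size. Nearest peaks in epithelium replicates 1 and 2 lay 13004 and 31477 bp from the GENCODE start. The RefSeq start of Ibsp lies 116 bp downstream of the GENCODE one. A peak lay over it in all 3 mesenchyme libraries and in epithelium replicate 3.

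Dmp1 showed the same split of libraries upstream of its start. The nearest peaks in mesenchyme were 638, 756 and 680 bp upstream and 806, 765 and 700 bp wide. Epithelium replicate 3 had a peak of 251 bp there, replicate 2 had its nearest peak 1564 bp upstream, and in replicate 1 the nearest was 9699 bp downstream. This is the stretch printed as Dmp1 -1.1 kb, which holds an AP-1 motif, the RUNX core and a GC box on the other strand. With a margin of 1 kb, Dmp1 and Ibsp thus both had 3 mesenchyme libraries and epithelium replicate 3, Spp1 had mesenchyme replicate 3 alone, and Dspp and Mepe had no library. Alpl and Bglap again had all 6, as did 69.8% of all starts, and no member had 1 tissue complete and the other empty (0.26% of all starts for mesenchyme, 0.297% for epithelium).

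Spp1 otherwise had its nearest peaks 7475 to 11126 bp from the start in epithelium, and 1836 and 11111 bp in mesenchyme replicates 1 and 2. Mepe had its nearest peak in an intron 3106 to 3129 bp downstream in the mesenchyme libraries and 3027 bp downstream in epithelium replicate 3. In epithelium replicates 1 and 2 it was 5378 and 5319 bp away. The intronic region of Mepe, +3.3 kb at chr5:104328356-104328805, had the same 4 libraries as the regions at Ibsp and Dmp1.

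**Figure D2:**
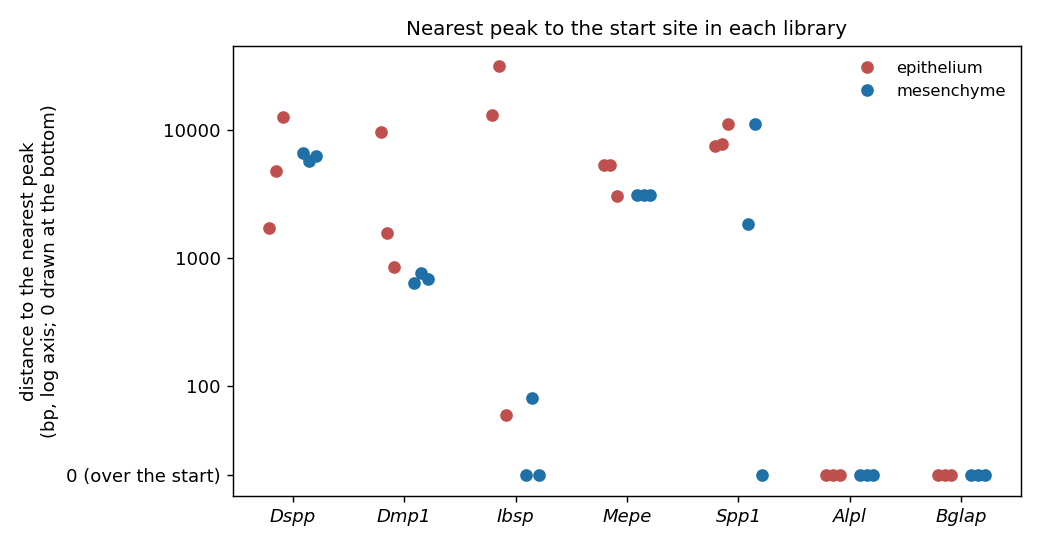
Distance from the start of each gene to the nearest edge of the nearest peak in each library (bp, log axis, with 0 drawn at the bottom) for epithelium (red) and mesenchyme (blue). All 6 libraries sit at 0 for Alpl and Bglap, and at Dmp1 the mesenchyme libraries lie at 638 to 756 bp with the epithelium libraries from 850 to 9699 bp.

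The 6 lists of peaks were merged where they overlapped by at least 1 bp, and a region was kept when at least 2 libraries had a peak in it. The members held 208 of 342690 kept regions. None was epithelium-only, with peaks in all 3 epithelium libraries and no mesenchyme library, where 2.98% of all kept regions were. Mesenchyme-only regions numbered 8, or 3.85% of the members' regions, where 2.2% of all were. With 3 libraries a side, no two-sided exact test of presence in 1 region can reach 0.05. Nor is a missing peak closed chromatin, because the peaks come without heights and the cutoff that made them is unknown here.

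Of the 8 mesenchyme-only regions 4 belonged to Alpl. One lay in an intron, +18.6 kb from the start at chr4:137777633-137778001. Another pair sat upstream, Alpl -9.3 kb at chr4:137805364-137806085 and Alpl -10.6 kb at chr4:137806730-137807247, with peaks of 348, 637 and 210 bp and of 416, 291 and 392 bp in the mesenchyme libraries. The fourth, Alpl -34.2 kb at chr4:137830284-137830797, was nearer to the start of Ece1, an endothelin-converting enzyme gene.

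Bglap had 2, the cluster 2. The Bglap pair lay in an intron of Smg5 (+28.1 kb, chr3:88356113-88356601) and at -92.1 kb nearer to Sema4a (chr3:88476323-88476818). In the cluster, Mepe +45.9 kb at chr5:104370694-104371672 had peaks of 910, 693 and 280 bp in mesenchyme and stood between Mepe and Spp1. The other, Dspp -55.4 kb at chr5:104115100-104115600, was nearer to Sparcl1, a relative of Sparc that belongs to the same wider gene family. Across the 8 regions the mesenchyme peaks were 199 to 910 bp wide with a median of 303 bp, and 12 of the 24 reached 300 bp. With narrower peaks left out, 2 of 133 regions were mesenchyme-only and 1 was epithelium-only. The mesenchyme-only share was then 1.50%, below the 2.53% of all regions, so that its place above the background turned with peak width.

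**Figure D3:**
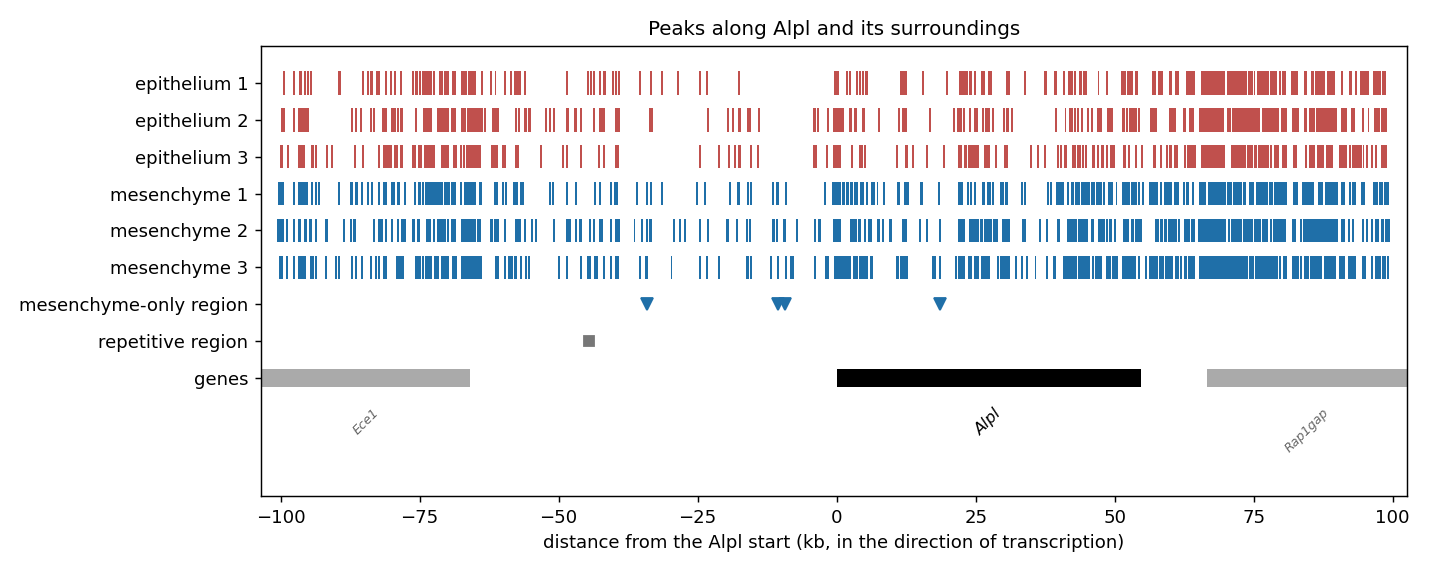
Peaks of each library along Alpl and 100 kb to each side of its start (horizontal axis in kb from the start, upstream to the left; narrow peaks are widened to be visible). Black and grey bars are genes, triangles mark the 4 mesenchyme-only regions, and the square marks 1 region of repetitive sequence.

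By looser patterns, Alpl and Bglap had few regions with more epithelium libraries. Their share with more mesenchyme libraries was near that of all regions. Peaks stood in more mesenchyme than epithelium libraries at 23 of 78 Alpl regions and 22 of 69 Bglap regions, and in more epithelium libraries at 4 of each. As shares, more epithelium came to 5.13% at Alpl and 5.80% at Bglap, where it was 24.7% of all kept regions. More mesenchyme came to 29.5% and 31.9%, near the 30.0% of all regions. The share with as many libraries of each tissue was 65.4% and 62.3%, against 45.4% of all, and the share found in all 6 libraries was 39.7% and 49.3%, against 19.1%. Regions along 1 locus are not independent, and these shares carry no test.

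Of the 61 cluster regions, 22 had more mesenchyme libraries (36.1%) and 16 had more epithelium libraries (26.2%), and 8 were found in all 6 libraries (13.1%). The pattern of 3 mesenchyme libraries with 1 epithelium library held at 7 cluster regions, or 11.5%, and 3 epithelium with 1 mesenchyme at 1, or 1.64%. Among all kept regions these patterns made up 3.77% and 2.69%. Of the 7 cluster regions, that at Mepe +15.5 kb held short tandem repeats where the peaks of all 3 mesenchyme libraries met. Inside the Dspp body, exon regions at +5.0 kb (232 and 499 bp) and +7.7 kb (368 and 265 bp) had peaks in epithelium replicates 1 and 2 and in no mesenchyme library, a pattern of 7.56% of all kept regions. Mesenchyme replicate 1 had a peak of its own in the body, 449 bp wide and 6663 bp from the start, which no other library shared.

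**Figure D4:**
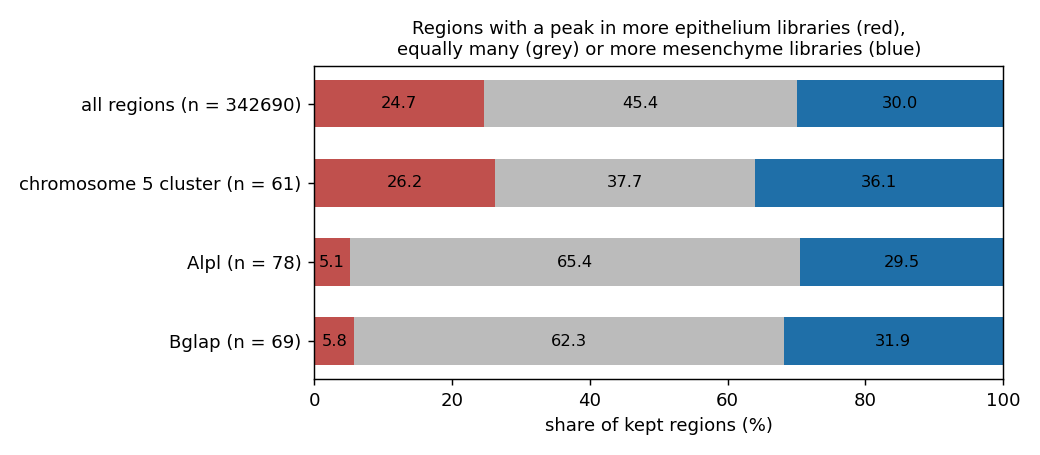
Share of kept regions (%) with a peak in more epithelium libraries (red), in as many of each tissue (grey) or in more mesenchyme libraries (blue), for all 342690 regions, the 61 of the chromosome 5 cluster, the 78 of Alpl and the 69 of Bglap. The red share is 5.13% at Alpl and 5.80% at Bglap beside 24.7% of all regions.

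Repetitive sequence was common in the cluster. A region was called repetitive when the 10-base words in its central 300 bp were under 80% distinct. This held for 10 of the 61 cluster regions (16.4%), for 1 of 78 at Alpl and 1 of 69 at Bglap, and for 4.55% of all kept regions. Mepe +6.1 kb, an intron region with peaks in all 6 libraries, had 19.6% distinct words. Of the Dspp exon regions, that at +7.7 kb had 37.5%. None of the 8 mesenchyme-only regions was repetitive. Whether reads from repeats made these peaks was not tested. Without repetitive peaks the members called stayed at 0, Mepe went from -0.29 to -0.52 and Dmp1 from -0.04 to 0.10 on the log2 scale.

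Motifs were read in the printed stretches and in all RefSeq promoters, 250 bases before to 50 after a start, with both strands searched. The upstream stretches printed above hold only part of that span. RefSeq promoters matched 6 of the 7 members, all but Dspp. The RUNX core occurred at -132 from the RefSeq start in Bglap, -164 in Dmp1, -128 in Spp1 and -118 and -80 in Mepe, and in 16.8% of 32851 promoters. Ibsp and Alpl had none, nor did the other RefSeq promoters of Dmp1 and Spp1. Alpl had 3 GC boxes, 70.0% GC and 26 CpG, where 35.7% of promoters held a GC box. The third Alpl GC box begins at the start itself, outside the printed stretch. RUNX factors direct osteoblast development, but a 6-base match is no evidence of binding. In the central 300 bp of the members' regions the RUNX core occurred in 26.9%, against 22.9% of all kept regions. It occurred in the central 300 bp of 1 of the members' 8 mesenchyme-only regions, Bglap -92.1 kb, and of 32.6% of all mesenchyme-only regions. The match printed in capitals for Mepe +45.9 kb lies outside the central 300 bp of that region.

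Other genes of mineralization were taken as a list of 39, all tested. In this list Bglap2 and Bglap3 lie beside Bglap (71 and 70 regions, with 69 at Bglap), and Sparcl1 lies beside Dspp. Their windows overlap those of these members, so part of the members' peaks was counted again. Of the 39 genes, 0 passed with more peaks in epithelium and 2 with fewer. The median log2 difference of the list was -0.04, beside -0.02 for all genes tested. The members' median was -0.14. Itgb3, the integrin subunit through which osteoclasts hold on to osteopontin and bone sialoprotein, had 23, 31 and 31 peaks in epithelium and 47, 59 and 54 in mesenchyme. The groups were far apart, with a limma log2 difference of -0.84 ± 0.16 (SE; adjusted p = 0.00127). Phospho1, a phosphatase that supplies phosphate inside matrix vesicles, had 45, 66 and 58 against 71, 95 and 77, a difference of -0.46 ± 0.12 (SE; limma adjusted p = 0.0252). Both calls were lost with no scaling, no filter, a 20 kb window or no trend, where the adjusted p of Itgb3 ran from 0.0519 to 0.113. That of Phospho1 was lost too with scaling by chromosome (0.148), by nearest start (0.269) or with a 50 kb window (0.211). It was also lost without epithelium replicate 1 (0.102), mesenchyme replicate 2 (0.151) or mesenchyme replicate 3 (0.0527), all by limma. With a 20 kb window the Phospho1 difference was -0.068 (limma adjusted p = 0.916) and that of Itgb3 -0.71.

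By role, the 2 calls fell among 4 receptors (Itgb3) and 9 genes of mineral and phosphate handling (Phospho1). None of 7 regulators, 9 matrix genes, 5 relatives of the secretory calcium-binding phosphoproteins and 5 genes of matrix removal was called. Runx2, the master regulator of osteoblasts, had 56, 48 and 50 peaks in epithelium and 57, 54 and 54 in mesenchyme, and Sp7, which acts after it, had 57, 73 and 66 against 82, 81 and 76. Their limma log2 differences were -0.04 (adjusted p = 0.919) and -0.23 (adjusted p = 0.312). The most positive values were those of Odam (0.51) and Enam (0.34), enamel-forming genes, and the most negative after Itgb3 was that of Omd (-0.74), an adhesive matrix gene; none of these 3 was called. The 39 genes held 24 epithelium-only and 55 mesenchyme-only regions of 1691, or 1.42% and 3.25%, where 2.98% and 2.2% of all kept regions were of these kinds. The 1691 include regions shared with Bglap and Dspp through Bglap2, Bglap3 and Sparcl1.

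Markers checked the tissues. Trp63, the regulator of stratified epithelium, had 25, 26 and 15 peaks in epithelium and 4, 12 and 5 in mesenchyme (limma log2 1.68, adjusted p = 0.000616). Prrx1, a mesenchyme factor, had 6, 16 and 14 against 23, 24 and 28 (limma log2 -1.04, adjusted p = 0.0102). Of 10 genes each, the epithelium list had 23 epithelium-only and 9 mesenchyme-only regions, or 4.01% and 1.57% of 573. The mesenchyme list had 4 and 26, or 0.786% and 5.11% of 509. Among all kept regions 2.98% and 2.2% were of these kinds. Osteoblast markers had 3 and 10 (1.09% and 3.62% of 276), with 0 of 5 genes called. Their summed peaks were 206 to 276 in epithelium and 244 to 266 in mesenchyme. Osteoclast and macrophage markers had 2 and 10 (0.585% and 2.92% of 342), with 0 of 6 called and sums of 288 to 376 and 346 to 387. Endothelium had 4 and 4 (2.04% each of 196) and skeletal muscle 0 and 2 (0% and 0.763% of 262). Nerve and glia had 2 and 2 (0.952% each of 210). Calls in these last lists were 0 of 5, 0 of 4 and 0 of 4, in that order. Which cells of the mesenchyme carried its peaks at the 7 genes was not tested.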

How the data were processed

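ATAC-seq was done by the authors on 3 palatal epithelium and 3 palatal mesenchyme libraries. From the methods of the study, and from the notes on processing that the submitters gave, reads went through Trimmomatic 0.38 and Bowtie2 (mm10, default parameters), duplicates were taken out with SAMtools, and fragments under 100 bp were passed to MACS2 2.1.1, library by library. The notes also name deepTools 2.0. The peak threshold and any mapping quality filter are not given in the sources used here. The deposited lists hold the chromosome, start and end of each peak and no height or score. Depth in reads is therefore unknown, and list length stands in for it, so no interval for counting error is given.

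Peaks on chromosomes 1 to 19, X and Y were counted as described in the report. The study compared reads with DiffBind, which needs reads, so limma 3.58.1 (R 4.3.3, mean trend, no replicate block, Benjamini-Hochberg adjustment over all 21737 genes, threshold 0.05, pseudocount 1) was run on log2 scaled peaks and first tested on simulated counts. Regions, motifs and repeats were computed in Python 3.11.15 with pandas 2.3.3 and pysam 0.24.0. Once scaled to list length, same-numbered libraries did not deviate together, and nothing in the labels ties them. That check leaves out list length itself, where replicate 1 was shortest and replicate 2 longest in both tissues. The members, gene lists and alternatives were chosen with earlier results of these data known. Genes named were the 7 members, other mineralization genes that passed the test, where fewer than 4 passed the 2 most positive and 2 most negative, neighbours sharing a region, and the 3 genes most like Alpl and Bglap. The genes most like the cluster sum and 1 repetitive sequence are not reported here. Runx2 and Sp7 were named after their values were seen, as were Trp63 and Prrx1.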

Additional observations from a re-analysis of the deposited data

How the results depend on the processing

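The log2 differences of the 7 genes were recomputed under 22 alternatives of scaling, pseudocount, filter, window, assignment, peak width, start, trend and libraries left out, which gave 152 values. Of these, 145 kept their direction and their side of the threshold. Ibsp was not tested with a mean of at least 3 peaks or with peaks of at least 300 bp. The sign turned for Dmp1 with a 20 kb window (0.022), without repetitive peaks (0.10, chosen after seeing the data), without epithelium replicate 1 (0.24) and without mesenchyme replicate 2 (0.25), for Dspp with peaks of at least 300 bp (-0.0041) and for Bglap without mesenchyme replicate 1 (0.0096). The cause was not tested. Leaving out each library in turn gave -2.29 to -0.95 for Ibsp, with 0 to 1 members called, the 1 being Ibsp without epithelium replicate 3. Of all 21730 genes tested without that library, 215 were called with more peaks in epithelium and 277 with fewer. Leaving out each library also gave -0.22 to 0.25 for Dmp1, -0.25 to 0.0096 for Bglap and -0.48 to -0.043 for Spp1. For Alpl it gave -0.20 to -0.015, for Mepe -0.41 to -0.12 and for Dspp 0.16 to 0.45. Over all alternatives the lowest limma adjusted p was 0.0275 for Ibsp and 0.0686 for Alpl.

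The 2 other mineralization genes with fewer peaks in epithelium became 0 with no scaling, no filter, a 20 kb window or no trend, 1 with scaling by chromosome, the nearest start or a 50 kb window, 5 in covered kb, and 1 to 2 with a library left out. Epithelium-only regions of the members, 0 as reported, were 1 when merging needed 100 bp (0.467%, 3.03% of all regions). They were 8 with at least 2 libraries (3.85%, 10.5%) and 3 with at most 1 of the other tissue (1.44%, 5.67%). Peaks of at least 300 bp gave 1 (0.752%, 3.84%). With a library left out there were 0 to 4 (0% to 2.04%, where all regions had 4.19% to 6.75%). Mesenchyme-only regions, 8 as reported, were 25 with at least 2 libraries (12.0%, 11.4% of all regions) and 21 with at most 1 of the other tissue (10.1%, 5.98%). They were 2 with peaks of at least 300 bp (1.50%, 2.53%) and 3 with a 20 kb window (4.62%, 2.20%). With a library left out there were 9 to 15 (4.84% to 7.73%, where all regions had 3.39% to 6.43%). Regions in all 6 libraries, 73 as reported, were 20 with a 20 kb window (30.8%, 19.1% of all regions). Over all genes the 336 with more and 379 with fewer peaks in epithelium became 32 and 16 without scaling, 0 and 1 without a filter, 4 and 1 without a trend, 29 and 10 by nearest start, 175 and 149 at 50 kb, 84 and 42 at 20 kb, 229 and 231 by chromosome and 1372 and 1670 in covered kb. Once scaled to list length, same-numbered libraries did not deviate together (correlations of 0.0183, 0.0505 and -0.00852). With the replicate number as a block, 438 and 591 genes and 0 members were called.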

Other observations

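The genes whose scaled peak numbers moved most like those of Alpl and Bglap over the 6 libraries were Ube2o, Mrpl42 and Aanat for Alpl (Pearson r = 0.998, 0.996 and 0.994) and Cd40, Scaper and Gm20741 for Bglap (r = 0.992, 0.989 and 0.987). They are the highest of 20414 to 20735 genes on other chromosomes over 6 points that share library depth, and are given as a description. In the stretches around Spp1 the region found in all 6 libraries at +24.6 kb lay at the start of Pkd2, the polycystin 2 gene, and that at +73.5 kb in BC005561, so neither lay at Spp1 itself. Their peaks covered 1077, 1214 and 1573 bp in epithelium and 1206, 1373 and 1111 bp in mesenchyme at Pkd2, a range that overlapped between tissues.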
